A study of Mus musculus with 6 samples.

Results

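The complement system is a cascade of plasma and tissue proteins that tags cells and debris for removal. The genes described here are 9 of its members: the components C3, C1ra, C1s1, Cfb and Cfd, and the regulators Cd55, Cd59a, Serping1 and Clu (clusterin). They were chosen by symbol from a table of 55487 mouse genes counted by RNA sequencing in 6 libraries, and each symbol stood for 1 identifier. The libraries are titled as ovarian granulosa cells, which line the follicle and nourish the oocyte. All are labelled wild type. The 3 control libraries received phosphate-buffered saline (PBS) and the 3 others cetylpyridinium chloride (CPC), a cationic antiseptic of mouthwashes; no dose, time or route of exposure is stated in the labels. The same records also name SKOV3, a human ovarian cancer line, and a GATA4 or vector transfection, which goes against the titles and against the mouse identifiers in the files. No label says whether replicates are separate animals or cultures. The p-values below therefore reflect only how these libraries differ from each other, and that spread may be technical.

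As background, the classical pathway starts when C1q binds a surface and its attached proteases C1r and C1s cut C4 and C2. The alternative pathway uses factor B and factor D, and all routes meet at C3, whose fragment binds covalently to the target. Host cells hold the cascade back: C1 inhibitor (Serping1) blocks C1r and C1s, CD55 takes apart the C3 convertases, and CD59 and clusterin hinder the terminal pore. Components of the cascade are known in ovarian follicles and follicular fluid, and clusterin is a secreted chaperone made by many epithelial and endocrine cells.

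Total counts were 19079345 to 23157541 per library. Of 12 granulosa cell markers, 11 passed the low-count filter, 7 fell in CPC and 0 rose (0 also at an unadjusted p under 0.05 and by DESeq2). Over all tested genes 19.7% were lower and 19.6% higher. Gata4 had 5159 to 7276 counts per library. Leukocyte markers summed to 201 to 330 CPM (counts scaled to library size) in control and 14.5 to 39.3 CPM in CPC. Lyz2, named after its values were seen, held most of the control sum. The theca marker Cyp17a1, named after its values were seen, was at 0 counts in all 6 libraries. The 9 theca and stroma markers, Cyp17a1 among them, summed to 68.8 to 380 CPM per library. The 7 oocyte markers together reached at most 4.15 CPM. Of 6 luteal markers, 5 were tested, 4 fell and 0 rose. With the replicate number as a block 5 fell, beside 27.9% of all tested genes. The 6 markers summed to 3356 to 5164 CPM in control and 739 to 1376 CPM in CPC. Hsd3b1, a steroid hormone synthesis gene named after its values were seen, fell 6.69-fold (edgeR adjusted p = 7.94e-04). The part of the granulosa, luteal and leukocyte changes in the falls described below was not tested. Replicate 1 of both groups stood apart in the surface epithelium and theca and stroma lists, given beside C3.

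Of the 9 members, 4 fell in CPC, namely Clu, C1s1, C1ra and Cd59a, and 0 rose. The comparison used edgeR's quasi-likelihood fit over 15000 genes at a Benjamini-Hochberg adjusted p of 0.05, in which 19.7% of all genes tested were lower and 19.6% higher. No member rose at an unadjusted p under 0.05 or by DESeq2 either. C3, Cd55 and Serping1 were measured and did not pass the test, and Cfb and Cfd had no counts. The libraries of the groups did not overlap for 4 members, the same ones that fell, where 26.8% of tested genes had every CPC library below every control library. In bulk RNA, fewer cells of a type and less RNA per cell cannot be told apart. The number of falls was 2 without control 1, control 3 or CPC 2 and without replicate 1 or 2 of both groups, and 1 when genes were not filtered on low counts. With the replicate number as a block, 1 member was higher (C3, where 26.5% of tested genes were) and the same 4 were lower (27.9%).

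**Figure D1:**
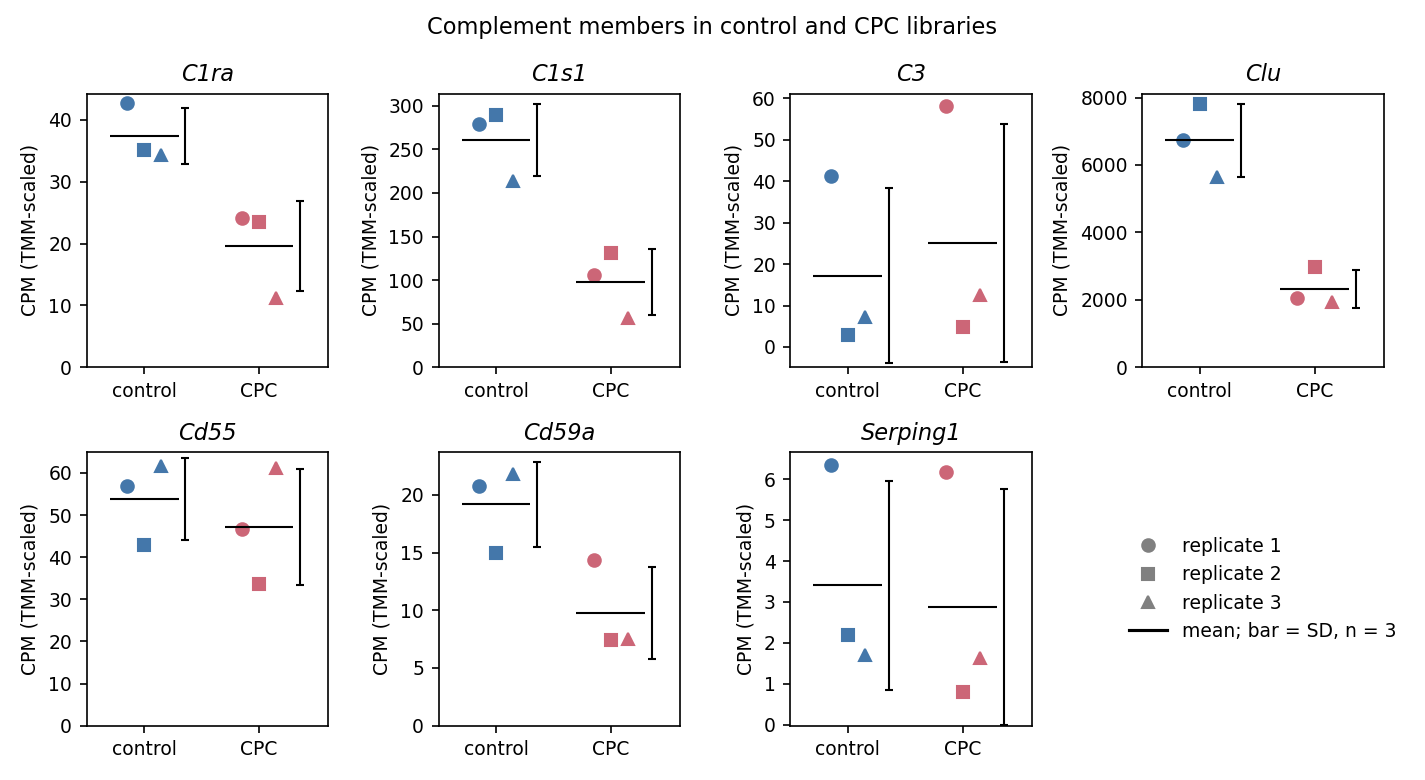
TMM-scaled CPM of the 7 detected members in each library, with the mean and the SD over 3 libraries per group; marker shapes give the replicate number. Control and CPC points are separate for C1ra, C1s1, Clu and Cd59a and overlap for C3, Cd55 and Serping1.

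C1s1 encodes the protease C1s, which cuts C4 and C2 (ENSMUSG00000038521; GRCm38.p6 chromosome 6, 124530345 to 124542359, minus strand). Its level was 279, 290 and 214 CPM in control 1 to 3 and 106, 131 and 56.2 CPM in CPC 1 to 3. Every CPC library lay below every control library, and CPC 3 was the lowest. The mean fell 2.67-fold, from 261 ± 41.1 to 97.7 ± 38 CPM (SD, n = 3; log2 fold change -1.42 ± 0.31, standard error; edgeR adjusted p = 0.0147). The call was lost without replicate 1 of both groups (edgeR adjusted p = 0.111) and with no low-count filter (0.0715).

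C1ra encodes C1r, the protease that activates C1s (ENSMUSG00000055172; chromosome 6, 124512405 to 124523443, plus strand). It had 42.7, 35.1 and 34.4 CPM in the controls and 24.1, 23.5 and 11.2 CPM in the CPC libraries. The groups were separate, with CPC 3 again lowest. The level fell 1.91-fold (log2 fold change -0.93 ± 0.28, standard error; edgeR adjusted p = 0.0410). This call sat close to the threshold: leaving out control 1, control 2, control 3, CPC 2, or replicate 1 or 2 of both groups ended it (edgeR adjusted p from 0.0599 to 0.127), as did no low-count filter (0.141) or scaling by library size alone (0.0503). With the replicate block it held (edgeR adjusted p = 0.00838).

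Mouse has a second copy of each of these genes, C1rb and C1s2, and no source used here says how reads that match both were assigned. In the GENCODE M21 transcripts, 48% of the 50-base windows of C1ra occur unchanged in C1rb, as do 24.3% of those of C1s1 in C1s2. C1rb had 21, 39 and 201 counts in control 1 to 3 against 25, 26 and 60 in CPC 1 to 3. Control 3 alone held most of its control counts, and the gene was not called (edgeR adjusted p = 0.297; 0.0451 with the replicate block). C1s2 had 411, 454 and 337 counts in control against 226, 209 and 101 in CPC, a 2.31-fold fall (edgeR adjusted p = 0.0182), lost without control 1 (0.0606), control 2 (0.0515), or replicate 1 (0.104) or 2 (0.0685) of both groups. With the counts of each copy added, the log2 fold change was -0.96 for C1ra (edgeR adjusted p = 0.0148) and -1.40 for C1s1 (0.0151). An antisense gene, Gm16567, overlaps C1s1 and held 9 to 24 counts per library. The strand used in counting is not stated.

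These genes lie side by side with C1rl, a C1r-like protease gene, in a 143 kb stretch of chromosome 6 (124493113 to 124636085). C1rl had 309, 482 and 416 counts in control against 171, 155 and 133 in CPC. It fell 2.68-fold (edgeR adjusted p = 7.08e-04) with no overlap between groups. Of the 5 C1r and C1s type genes in the stretch, C1rl, C1ra, C1s1 and C1s2 fell, beside 19.7% of all tested genes. C1ra, C1s1 and C1s2 lost their calls in some of the alternatives given above. C1s1 and C1s2 share sequence, so their counts may not be independent.

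The 250 bases before the start of C1s1 are shown because it is the most abundant of the protease genes that fell, beside those of C3 and Cd59a, a member that did not pass the test and a member that fell. They are from RefSeq (GRCm38.p6), which held an entry for 6 of the 9 members, and each is written 5′ to 3′ on the gene's strand. C1s1 is chr6:124542360-124542609 (minus), C3 is chr17:57228137-57228386 (minus) and Cd59a is chr2:104095551-104095800 (plus). Capitals mark matches to any of 4 motifs, searched on both strands: TTGCNNAA for C/EBP factors, TTCNNNGAA for STAT factors, GAANNTTC for heat shock factors and TGANTCA for AP-1. The motifs were chosen after the promoters and the expression values had been seen.
C1s1: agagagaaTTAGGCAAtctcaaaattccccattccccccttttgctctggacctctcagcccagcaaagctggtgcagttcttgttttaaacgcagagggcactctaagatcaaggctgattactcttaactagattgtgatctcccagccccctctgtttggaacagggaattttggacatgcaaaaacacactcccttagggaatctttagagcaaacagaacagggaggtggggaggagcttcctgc
C3: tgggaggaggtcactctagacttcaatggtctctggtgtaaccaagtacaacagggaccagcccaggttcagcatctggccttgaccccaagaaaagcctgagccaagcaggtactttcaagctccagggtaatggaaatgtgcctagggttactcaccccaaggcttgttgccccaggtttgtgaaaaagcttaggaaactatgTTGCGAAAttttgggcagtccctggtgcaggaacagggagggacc
Cd59a: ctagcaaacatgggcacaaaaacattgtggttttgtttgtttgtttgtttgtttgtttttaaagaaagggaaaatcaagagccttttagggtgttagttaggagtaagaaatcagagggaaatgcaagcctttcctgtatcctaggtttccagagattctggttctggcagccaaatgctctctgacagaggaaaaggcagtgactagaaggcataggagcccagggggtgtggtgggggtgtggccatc
In the C3 window the C/EBP pattern matched at -45 to -38 from the start. The C1s1 window held 1 C/EBP match, at -242 to -235, and the Cd59a window none of the 4 patterns. All 6 members with an entry were searched, and those not shown held none of the 4 patterns either. Over all 32851 RefSeq windows of this length, 9.56% held the C/EBP pattern, 7.02% the STAT pattern, 6.69% the heat shock pattern and 6.75% the AP-1 pattern. A match describes letters, not binding.

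Serping1 encodes C1 inhibitor (ENSMUSG00000023224; chromosome 2, 84765387 to 84775444). It was the least abundant detected member, with 119, 50 and 36 counts in control 1 to 3 against 144, 16 and 35 in CPC 1 to 3. Replicate 1 held the highest value in both groups, and the groups overlapped. Its level was 3.41 ± 2.56 CPM in control and 2.87 ± 2.89 CPM in CPC (SD, n = 3; log2 fold change -0.23 ± 0.84, standard error; edgeR adjusted p = 0.849). The direction turned without control 1, where the log2 fold change was 0.57, without CPC 2 (0.22) and without CPC 3 (0.06).

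C3 (ENSMUSG00000024164; chromosome 17, 57203970 to 57228136, minus strand) had 776, 69 and 153 counts in control 1 to 3 against 1356, 96 and 269 in CPC 1 to 3, or 41.4, 3.01 and 7.19 CPM against 58.1, 4.82 and 12.5 CPM. The spread between replicate numbers (SD 21.1 CPM in control and 28.8 CPM in CPC) was wider than the distance between the group means of 17.2 and 25.1 CPM: replicate 1 was highest and replicate 2 lowest in both. Compared as groups, C3 had a log2 fold change of 0.56 ± 1.26 (standard error; edgeR adjusted p = 0.755), and without CPC 1 the direction turned (log2 fold change -0.97). Compared within equal replicate numbers, CPC was higher in 3 of 3 pairs, by ratios of 1.4, 1.6 and 1.74, as it was for 36.3% of tested genes. With the replicate number as a block the rise was 1.54-fold (log2 fold change 0.63 ± 0.10, standard error; edgeR adjusted p = 0.00111). The blocked call held without replicate 1 (log2 fold change 0.75; edgeR adjusted p = 0.0106), without replicate 2 (0.61; 6.20e-04) and without replicate 3 (0.54; 0.00597), and with DESeq2 and the same block (0.64; adjusted p = 4.47e-04).

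Surface epithelium and theca and stroma markers were also highest in replicate 1 of both groups. The 7 surface epithelium markers summed to 340, 153 and 157 CPM in control 1 to 3 and 374, 92.7 and 91.6 CPM in CPC 1 to 3. The 9 theca and stroma markers summed to 309, 93.1 and 91.6 CPM in control and 380, 128 and 68.8 CPM in CPC. Krt8 and Krt18 held most of the epithelial sum, with 135 and 110 CPM (TMM-scaled) in control 1, so it says little of the other markers. Within pairs the epithelial sum was higher in CPC for replicate 1 alone and the stromal sum for replicates 1 and 2. In these lists 0 of 6 and 0 of 7 tested markers rose or fell between the groups (0 also at an unadjusted p under 0.05 and by DESeq2). With the replicate block 3 epithelial markers (Krt8, Upk1b and Upk3b) and 1 stromal marker (Lum) fell and 0 rose (edgeR). Of all tested genes, 19.7% were lower and 19.6% higher without the block, and 27.9% and 26.5% with it. The part of these cells in the C3 level was not tested.

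**Figure D2:**
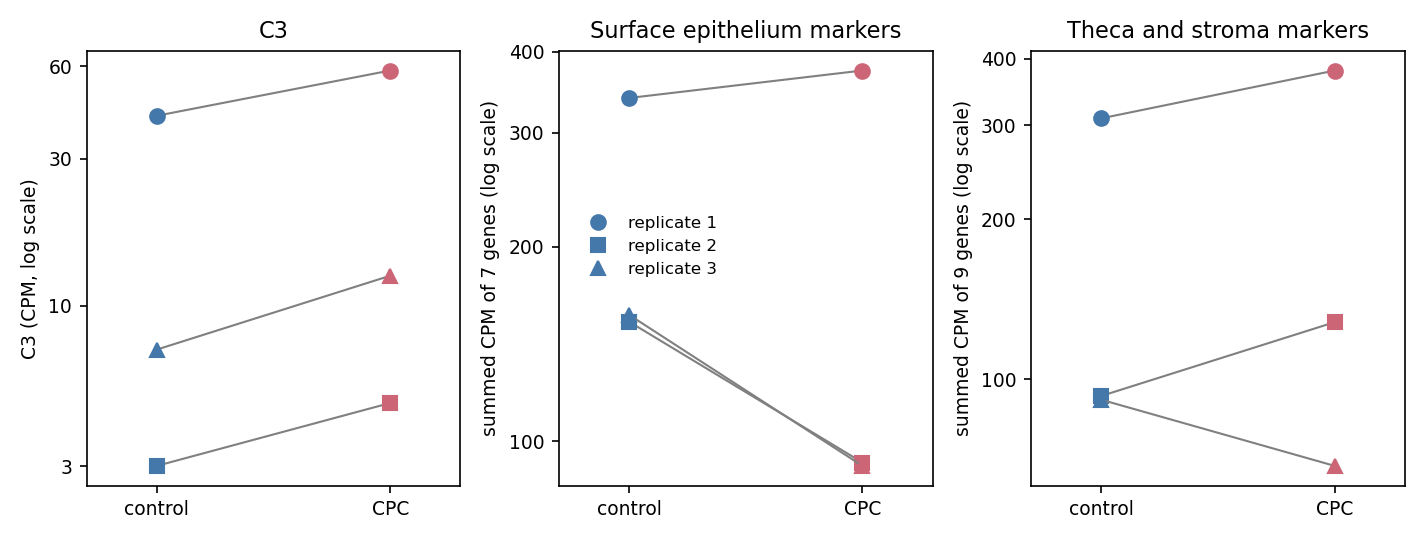
C3 in CPM and the summed CPM of 7 surface epithelium and 9 theca and stroma markers per library, on log axes, with grey lines joining control and CPC libraries of equal replicate number. All 3 C3 lines go up, from 41.4 to 58.1, 3.01 to 4.82 and 7.19 to 12.5 CPM. The marker sums go up in some pairs and down in others.

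Genes were also ranked by how near their profile over the 6 libraries lay to that of C3. Likeness was the root mean square distance between log2 CPM profiles, each centred on its mean, over 10312 genes. The nearest were Lrp2, an endocytic receptor gene (0.546), Msln, which encodes mesothelin (0.621), Des, which encodes desmin (0.622), and Bnc1, a zinc finger gene of epithelia (0.635). Lrp2 had 24.4, 2.66 and 4.47 CPM in control and 28.3, 7.07 and 6.43 CPM in CPC. Their likeness to C3 was the rule that chose them, so no test of these genes is given.

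Cfb, which encodes factor B, and Cfd, which encodes factor D, the proteases of the alternative pathway, had 0 counts in each of the 6 libraries. A count of 0 allows up to 3 counts, or 0.128 to 0.16 CPM per library, by counting error alone. They lie on chromosome 17 (34856374 to 34862518) and chromosome 10 (79890853 to 79892655). No difference could be measured for either.

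Cd55 encodes decay-accelerating factor, which takes apart C3 convertases on the cell's own surface (ENSMUSG00000026399; chromosome 1, 130439027 to 130462744). It had 56.8, 42.9 and 61.6 CPM in control and 46.8, 33.6 and 61.2 CPM in CPC. The groups overlapped, and CPC 3 was about as high as control 3. The log2 fold change was -0.19 ± 0.23 (standard error; edgeR adjusted p = 0.562, and 0.0584 with the replicate block), and without CPC 2 it was 0.02. Its copy Cd55b had 3 counts in CPC 1 and 0 in the 5 other libraries.

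Cd59a encodes an anchored surface protein that stops C9 from joining the terminal pore (ENSMUSG00000032679; chromosome 2, 104095801 to 104115354). Its level was 20.8, 15 and 21.8 CPM in control and 14.4, 7.42 and 7.55 CPM in CPC. CPC 1 lay just under the lowest control, control 2, and the 2 other CPC libraries well under it. The mean fell 1.96-fold, from 19.2 ± 3.63 to 9.78 ± 3.96 CPM (SD, n = 3; log2 fold change -0.97 ± 0.29, standard error; edgeR adjusted p = 0.0357). Leaving out control 1, control 3, CPC 2, CPC 3, or replicate 2 or 3 of both groups ended the call (edgeR adjusted p from 0.0950 to 0.216), as did no low-count filter (0.0761), while it held with the replicate block (0.00284). Its copy Cd59b had 35, 24 and 38 counts in control against 24, 13 and 18 in CPC (edgeR adjusted p = 0.0716, and 0.0204 with the block).

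Clu (ENSMUSG00000022037; chromosome 14, 65968483 to 65981547) was by far the most abundant member. It had 126099, 179183 and 120277 counts in control 1 to 3 against 48117, 59222 and 41382 in CPC 1 to 3, or 6731, 7816 and 5656 CPM against 2061, 2971 and 1929 CPM. The highest CPC library, CPC 2, stayed well under the lowest control, so a lower CPC value in 3 of 3 replicate pairs follows and adds no evidence. The fall was 2.9-fold (log2 fold change -1.54 ± 0.21, standard error; edgeR adjusted p = 0.00196). The difference between this fall and that of C1s1 was not tested. By RPKM, the read count scaled to library size and exon length, Clu ranked 4 to 9 among all genes in the control libraries and 10 to 32 in the CPC libraries. Its call held under each of the 20 alternatives tried, with log2 fold changes of -1.74 to -1.42 when libraries were left out.

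The 4 profiles nearest to that of Clu were those of Fos, an AP-1 subunit gene (distance 0.0531), Adarb1, an RNA-editing adenosine deaminase gene (0.0988), Serpinb9b, a granzyme inhibitor family gene (0.101), and Hmgn5, a nucleosome-binding protein gene (0.116). Fos had 39.2, 43.4 and 31.1 CPM in control and 12.6, 16.5 and 11 CPM in CPC, a 2.85-fold fall. The genes were chosen for a profile like that of Clu, so a lower level in CPC follows from the choice and is not a result. The libraries share groups and replicate numbers, so this likeness is a description of these 6 libraries.

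Per length, the order of the members in control was Clu at 3720 ± 597 RPKM, C1s1 at 89.8 ± 14.1, Cd55 at 21.2 ± 3.83, C1ra at 12.5 ± 1.54, Cd59a at 11.4 ± 2.14, C3 at 3.35 ± 4.1 and Serping1 at 1.93 ± 1.45 RPKM (SD, n = 3). C1ra and Cd59a overlapped in their library values, as did C3 and Serping1. In CPC the means ran in the same order, from 1282 ± 314 RPKM for Clu to 33.6 ± 13.1 for C1s1, 18.6 ± 5.46 for Cd55, 6.57 ± 2.43 for C1ra, 5.78 ± 2.34 for Cd59a, 4.9 ± 5.6 for C3 and 1.62 ± 1.63 RPKM for Serping1. There C1s1 and Cd55 overlapped as well, at 19.3 RPKM for C1s1 in CPC 3 against 24.2 RPKM for Cd55 in the same library. C3 also overlapped C1ra and Cd59a in CPC, and in CPC 1 its 11.3 RPKM lay above their 8.08 and 8.49 RPKM.

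Outside these members, 52 more complement genes were listed, of which 26 passed the filter, 14 fell and 4 rose. Over all tested genes 19.7% were lower and 19.6% higher. By DESeq2 and by limma-voom 12 fell and 4 rose. With the replicate number as a block 19 fell and 4 rose, beside 27.9% and 26.5% of all tested genes. The median log2 fold change of the 26 was -1.17, against 0.00 for all tested genes. A further 10 of the 52 had no count in any library, among them the pore genes C6, C7 and C9. The 4 that rose were Cr1l, Cd46, C1qbp and Masp2. Cr1l encodes Crry, the rodent membrane regulator of C3 convertases, and went from 60.6, 53.1 and 61.2 CPM in control to 94.7, 90.7 and 94.7 CPM in CPC. That rise was 1.6-fold, with no overlap (edgeR adjusted p = 0.00100). Cd46, a membrane cofactor gene, rose 2.73-fold from 1.93 ± 0.227 CPM (edgeR adjusted p = 0.00475), and C1qbp, whose mitochondrial protein also binds C1q, rose 1.55-fold (0.0102). Masp2, a protease of the lectin pathway, had 3, 7 and 9 counts in control against 31, 31 and 23 in CPC (edgeR adjusted p = 0.00543). Masp1, another lectin pathway protease gene, named after its values were seen, was far more abundant and went the other way, from 150, 224 and 156 CPM in control to 98.6, 110 and 92.3 CPM in CPC, a 1.77-fold fall with no overlap (edgeR adjusted p = 0.00863). Without replicate 1 of both groups only 1 rise was left, since Cd46 (edgeR adjusted p = 0.0665), C1qbp (0.0884) and Masp2 (0.0549) lost their calls.

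Of 7 regulators tested outside the members, 3 rose and 0 fell (1 at an unadjusted p under 0.05, 0 by DESeq2). Over all tested genes 19.6% were higher and 19.7% lower. With the replicate number as a block 3 of these regulators rose and 3 fell, beside 26.5% and 27.9% of all tested genes. Cfi, the factor I gene, and C4b, a C4 gene, were under the filter with at most 12 and 3 counts. C2 had 126, 102 and 128 counts in control against 118, 97 and 105 in CPC, and was not called (edgeR adjusted p = 0.425).

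**Figure D3:**
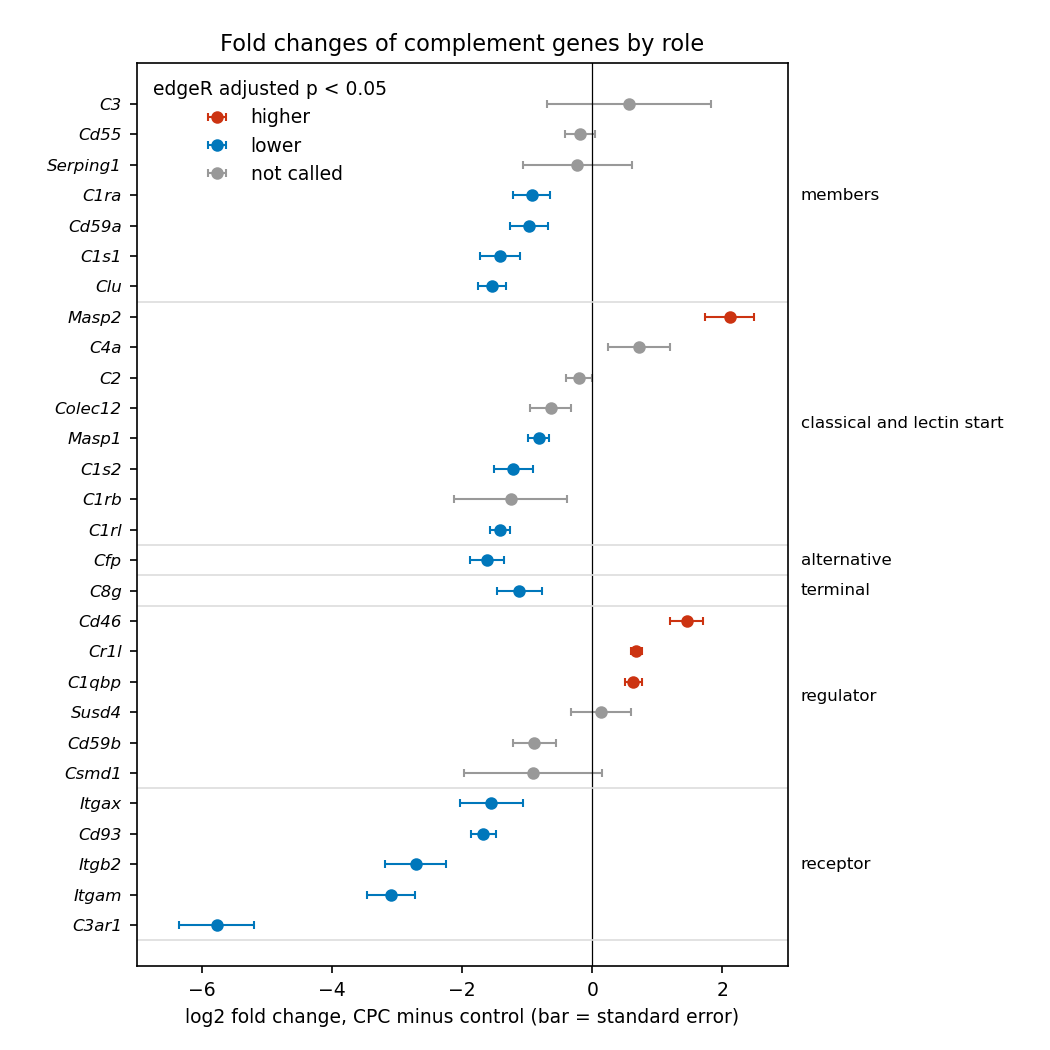
Log2 fold change of CPC minus control with its standard error for the 7 detected members and other tested complement genes, by role; red and blue mark genes called higher and lower, grey those not called. C1qa, C1qb, C1qc and C5ar1, with 0 or 1 count over the CPC libraries, and 1 regulator are not drawn; the called regulators Cd46, Cr1l and C1qbp lie right of 0 and every receptor left of it.

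The C1q chains, the part of C1 that C1r and C1s attach to, were close to absent in CPC. C1qa had 38, 63 and 67 counts in control against 1, 0 and 0 in CPC, and C1qb 39, 56 and 54 against 0, 0 and 1. C1qc had 56, 94 and 98 counts in control against 0 in each CPC library, which is at least 81-fold lower against a floor of 3 counts over the group. The control-to-CPC ratio was 165 for C1qa (exact 95% counting interval 29.1 to 6538) and 146 for C1qb (25.8 to 5803), and edgeR adjusted p was 4.28e-04, 4.21e-04 and 6.04e-04 for C1qa, C1qb and C1qc.

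All 6 tested receptor genes were lower in CPC by edgeR, beside 19.7% of all tested genes. By DESeq2 5 were lower, and Itgax, an integrin chain gene named after its values were seen, missed the threshold (adjusted p = 0.0627). Itgax also lost its edgeR call without control 1, without any one CPC library and without any replicate number of both groups (edgeR adjusted p from 0.0566 to 0.196), and Itgb2, another integrin chain gene, lost it without replicate 1 of both groups (0.0562). C3ar1, the C3a receptor gene, had 50, 87 and 95 counts in control against 3, 0 and 1 in CPC. C5ar1, the C5a receptor gene, had 15, 27 and 30 counts in control against 0 in CPC, at least 23.5-fold lower against the same floor. Cfp, which encodes properdin, the stabilizer of the alternative convertase, fell 3.06-fold (edgeR adjusted p = 0.00340). Leukocyte markers fell too: 12 of them summed to 201, 254 and 330 CPM in control and 24.3, 14.5 and 39.3 CPM in CPC. By edgeR 9 of 10 tested fell, beside 19.7% of all tested genes. Lyz2 held most of the control sum, so it says little of the other markers. Its level was 164, 207 and 283 CPM (TMM-scaled) in control and 6.9, 5.42 and 20.7 CPM in CPC. C1q, C3ar1 and C5ar1 are known macrophage products. The part of leukocytes in these falls was not tested. Cd93, a surface glycoprotein gene once named a C1q receptor and picked out here after its values were seen, was much more abundant, at 173 ± 35.2 CPM in control and 54.4 ± 9.93 CPM in CPC (SD, n = 3; edgeR adjusted p = 0.00124).

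**Figure D4:**
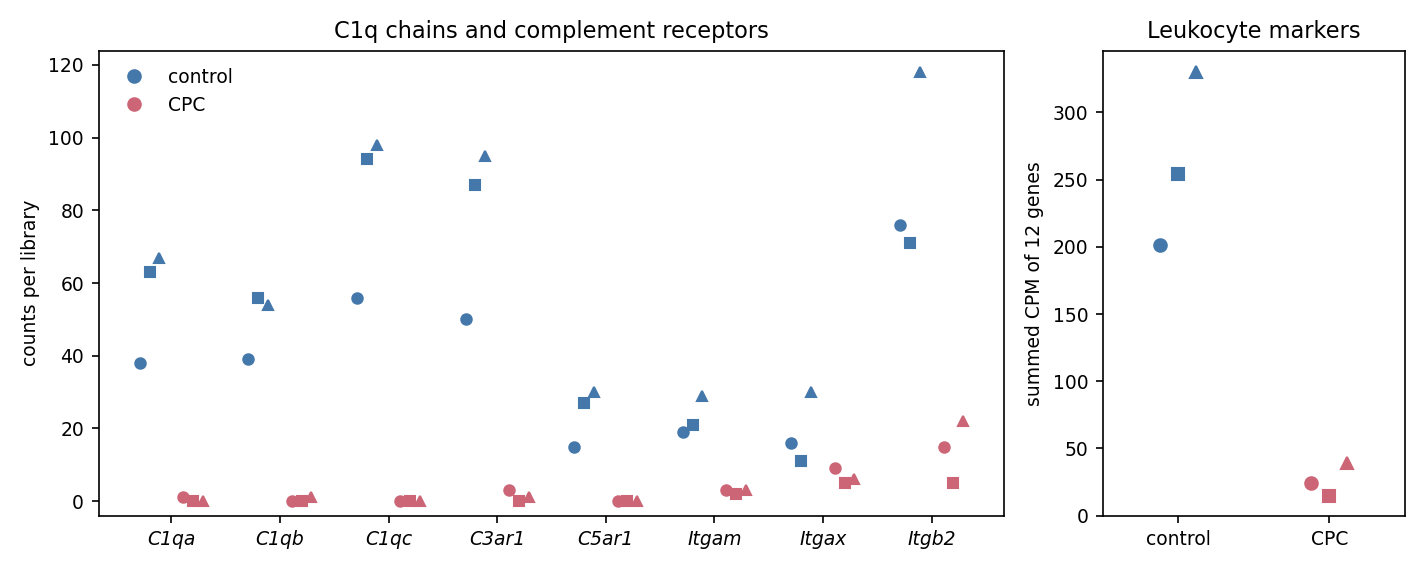
Counts per library of the C1q chains and of 5 complement receptor genes, and the summed CPM of 12 leukocyte markers; marker shapes give the replicate number as in the plot of members. Control libraries hold 15 to 98 counts for C1q chains, C3ar1 and C5ar1 and CPC libraries 0 to 3, while the marker sum is 201 to 330 CPM in control and 14.5 to 39.3 CPM in CPC. Lyz2 holds most of the control marker sum.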

How the data were processed

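The authors deposited 1 table per library with whole-number counts per gene, not normalized, exon length and GRCm38.p6 locations, per the file headers. Bowtie2, RSEM and the human build hg19 are named without versions, per the submitters' processing notes; since the tables are of mouse genes, the tools behind these counts are uncertain. The exon length column, in bases, is an annotation value and was used for RPKM only.

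Counts of all genes were filtered with filterByExpr (15000 genes kept), scaled by TMM and compared with edgeR 4.0.16 (robust quasi-likelihood fit, no covariate; R 4.3.3), with p-values adjusted over all tested genes at 0.05. Standard errors are the absolute log2 fold change over the square root of F. Gene levels are TMM-scaled CPM; sums over marker lists, and ratios for genes near 0, are plain CPM. Alternatives were DESeq2 1.42.0, limma-voom 3.58.1, other scaling and filters, left-out libraries, added copies and a replicate block; the block with left-out pairs or with DESeq2 was chosen after seeing the data. Deviations from group means correlated at 0.626, 0.576 and 0.596 between equal replicate numbers and at -0.342 to -0.238 otherwise. Deviations from a mean of 3 libraries sum to 0, so the negative values follow from the positive ones and add no evidence. The pairing by replicate number is read from these correlations, not from a label. The edgeR code was tested on simulated data. Floors and intervals cover counting error only.

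The members and the lists were chosen with earlier results of these data known. All members were named; of the other complement genes those with the smallest adjusted p (up to 5 in each direction) and 10 set genes. Of the set genes, 1 regulator is not reported here.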

Additional observations from a re-analysis of the deposited data

How the results depend on the processing

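Clu kept its fall under every alternative; C1s1 lost its call in 2 of 21, Cd59a in 7 of 21 and C1ra in 8 of 21 alternatives, none with a change of direction. Members called lower numbered 1 with no low-count filter and 2 to 4 with libraries left out; members called higher numbered 1 with the replicate block, alone, with any replicate number left out or with DESeq2, and 0 with libraries left out and no block. With libraries left out, log2 fold changes ran from -0.97 to 2.31 for C3, from -0.41 to 0.02 for Cd55 and from -1.46 to 0.57 for Serping1. Directions turned for C3 without CPC 1, Cd55 without CPC 2 and Serping1 without control 1, CPC 2 or CPC 3 (0.57, 0.22 and 0.06), all uncalled; the cause was not tested. Other complement genes called numbered 2 higher and 4 lower with a filter of 5 CPM in 3 libraries, which tests fewer genes, and 1 to 4 higher and 10 to 14 lower with libraries left out. Over all genes 928 to 2613 were higher and 1033 to 2576 lower with libraries left out. The replicate block changed no member's call other than that of C3. Cd55 passed with the block without replicate 3 (log2 fold change -0.32; edgeR adjusted p = 0.0187). Depth limits Cfb, Cfd, Serping1 and the C1q chains, with at most 144 counts per library.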

Other observations

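Complement genes are known to be driven by interleukin 6 and NF-kB signalling. Of 24 listed acute-phase and NF-kB genes 21 were tested, 5 rose and 5 fell, numbers near the background of 19.6% and 19.7% of all tested genes. With the replicate block 5 rose and 8 fell, beside 26.5% and 27.9%. Il6st, which encodes the shared interleukin 6 receptor subunit gp130, had 144, 145 and 149 CPM in control and 303, 337 and 277 CPM in CPC, a 2.09-fold rise (edgeR adjusted p = 3.60e-04). Rela, an NF-kB subunit gene, rose 1.35-fold from 66.5 ± 3.5 CPM (SD, n = 3; edgeR adjusted p = 0.00390). Ptx3, a pattern-recognition protein that binds C1q, had 21, 36 and 12 counts in control against 1111, 621 and 330 in CPC (edgeR adjusted p = 0.00170), while Hp, which encodes haptoglobin, had 430, 114 and 120 counts in control against 10, 0 and 0 in CPC (edgeR adjusted p = 0.0104).

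Lcn2 and Saa3, acute-phase protein genes named here after their values were seen, varied by replicate number. Lcn2 had 2029, 7 and 374 counts in control 1 to 3 against 4581, 9 and 317 in CPC 1 to 3, and Saa3 had 1319, 170 and 821 in control and 947, 49 and 175 in CPC. Both were highest in replicate 1 and lowest in replicate 2 of each group. Neither was called between the groups (edgeR adjusted p = 0.799 and 0.472). With the replicate block Saa3 fell (log2 fold change -1.45; edgeR adjusted p = 0.0198), and it was lower in CPC in 3 of 3 pairs, while Lcn2 was not called (0.40; 0.259). With that block 27.9% of all tested genes were lower, and the share lower in 3 of 3 pairs was not counted.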
